A study of Rattus norvegicus with 20 samples.

Results

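Krt4, Krt13, Sprr3 and Mal are 4 genes of the upper layers of the mucosal lining. Each was measured by the probe set whose single gene symbol in the platform annotation is that name, and where a symbol has several such probe sets the one with the highest mean over the 20 arrays would be taken. Each of the 4 symbols had 1 probe set, so all 4 of 4 genes were found, among 14506 symbols and 29215 probe sets in all. The probe sets are 10907501 for Krt4, 10747244 for Krt13, 10824728 for Sprr3 and 10849700 for Mal.

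The lining of the mouth, the esophagus and the vagina is a stratified squamous epithelium. Its cells divide in the basal layer, where Krt5 and Krt14 form the filaments, and switch to other keratins as they move up. In linings that do not keratinize, the type II keratin Krt4 pairs with the type I keratin Krt13. Sprr3 is a small proline-rich protein that transglutaminases cross-link into the envelope of the outermost cells. Mal is a membrane proteolipid of the MARVEL family that takes part in the transport of lipid-rich vesicles to the apical surface.

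The 5 tissues compared were the oral mucosa, the esophagus, the trachea, the vagina and the footpad of rats at postnatal day 200. All groups shared the Sprague-Dawley background and the SDTgN (act-EGFP)obsCZ-004 transgene, which makes the cells fluoresce green wherever they go. Cells before transplantation had only been cultured, on irradiated mouse 3T3-J2 fibroblasts. Cells after transplantation had been put into newborn mouse skin, carried on the back of nude mice, recovered from the grafts and cultured again in the same way. EGFP-positive cells were sorted for both, so mouse cells were removed while any kind of donor rat cell could remain. Each of the 10 groups had 2 arrays, from duplicate cultures. The sources used here do not state how many rats or grafts they stem from, so p-values measure only the spread between duplicates.

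Values are log2 RMA values, where a difference of 1 is a 2-fold difference in signal. They have no detection call, and array medians lay between 5.31 and 5.55. Of the basal layer genes, 5 were measured, namely Krt14, Tp63, Itga6, Itgb4 and Col17a1, and all 5 lay above the array median in each of the 10 groups. Their mean per array was 10.97 to 11.61. Of 3 measured genes of ciliated and secretory airway cells (Foxj1, Scgb1a1 and Tekt1), 1 lay above the median in trachea cells, as in all other groups. Leukocyte, endothelial and melanocyte markers had list means of 3.22 to 4.43, under the median of each array. Among the leukocyte markers, however, Cd68 lay between 5.38 in footpad and 7.89 in oral mucosa, both before transplantation. The 4 muscle markers had list means of 5.52 to 6.04, and 2 or 3 of them lay above the median in each group. Fibroblast markers, 12 in number, differed between the tissues before transplantation. Their list means were 6.69 and 6.55 in vagina, 6.85 and 6.80 in footpad and 6.73 and 6.58 in trachea. In oral mucosa they were 4.99 and 5.14 and in esophagus 5.03 and 5.24. Their part in the differences between tissues was not tested. In bulk RNA, fewer cells of a type and less RNA per cell cannot be told apart.

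Before the values, the sequences just upstream of 2 of the 4 genes, those with a promoter sequence at hand, are shown as a description. The RefSeq promoter table of the GRCr8 assembly held Krt4 and Mal. Each line gives the 250 bases before the annotated transcription start, 5′ to 3′ on the minus strand, at chr7:134930714-134930963 for Krt4 and chr3:135341424-135341673 for Mal. Capitals mark TGANTCA, a pattern wider than the AP-1 consensus, whose central base is C or G, and the TATA motif TATAA.
Krt4: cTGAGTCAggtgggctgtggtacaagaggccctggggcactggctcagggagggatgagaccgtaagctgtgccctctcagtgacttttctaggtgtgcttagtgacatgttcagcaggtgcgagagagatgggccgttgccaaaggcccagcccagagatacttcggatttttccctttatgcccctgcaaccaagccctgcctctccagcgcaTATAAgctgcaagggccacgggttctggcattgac
Mal: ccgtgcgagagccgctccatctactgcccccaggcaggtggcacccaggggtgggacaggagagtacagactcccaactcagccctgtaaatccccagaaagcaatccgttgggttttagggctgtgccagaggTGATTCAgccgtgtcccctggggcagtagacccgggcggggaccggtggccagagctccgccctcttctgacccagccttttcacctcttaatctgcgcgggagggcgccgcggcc
The search covered both strands and counted overlapping matches. Both promoters held 1 match to TGANTCA, which begins 249 bases before the start in Krt4 (TGAGTCA) and 116 bases before it in Mal (TGATTCA). The match in Krt4 has the letters of the AP-1 consensus, and that in Mal, with T at the center, does not. Of 33469 rat promoters, 6.34% held TGANTCA in their 250 upstream bases. The Krt4 promoter had TATAA beginning 35 bases before the start, and 24.0% of promoters held that motif. The KLF motif CACCC was found at 209 bases and, on the other strand, at 202 bases before the start of Mal, and 49.2% of promoters held it. The AP-2 motif GCCNNNGGC was found at 111 bases before the start of Krt4, and 12.6% of promoters held it. A match of letters is not a site of binding, and no data here bear on binding.

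The first question was how the genes were expressed in culture before transplantation. Oral mucosa cells had the highest level of each of the 4 genes and footpad cells the lowest of Krt4, Krt13 and Mal, while Sprr3 was lowest in trachea. Krt4 measured 11.90 and 12.01 in the oral mucosa arrays, 10.85 and 10.81 in esophagus and 8.43 and 8.20 in trachea. The vagina arrays gave 5.98 and 6.48 and the footpad arrays 5.13 and 4.91. No 2 tissues overlapped, which with 2 arrays each is not a result by itself, and its share over all probe sets was not counted. The highest and lowest group means lay 6.94 ± 0.18 (SE) apart (limma adjusted p 1.53e-11). Each of the 10 pairs of tissues passed the test for Krt4, which asked for a fold of more than 2 together with a limma adjusted p below 0.05. Without replicate 2 of vagina, vagina minus footpad was 0.96 and did not pass the fold. Krt13 passed it in 8 pairs, Sprr3 in 8 and Mal in 7. The share of all probe sets past the same test, in either direction, was, for oral mucosa, 3.37% against vagina, 2.68% against esophagus, 5.6% against footpad and 3.9% against trachea. For vagina it was 1.5% against esophagus, 2.47% against footpad and 1.05% against trachea. It was, for esophagus, 2.08% against footpad and 1.88% against trachea and, for footpad, 2.72% against trachea. In limma's F test over the 5 tissues the adjusted p was 2.36e-11 for Krt4, 4.48e-11 for Krt13, 1.6e-11 for Sprr3 and 6.41e-08 for Mal, and 35.7% of all probe sets had one under 0.05.

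Krt13, the partner of Krt4, followed a similar but not identical order. It measured 12.99 and 13.08 in oral mucosa, 12.28 and 12.18 in esophagus, 10.46 and 10.90 in vagina, 9.98 and 9.81 in trachea and 6.50 and 6.30 in footpad. Vagina cells thus stood above trachea cells for Krt13 by 0.78 ± 0.17 (adjusted p 0.0172, fold under 2) and below them for Krt4 (−2.08 ± 0.18, adjusted p 6.35e-06). Oral mucosa and esophagus, neighbors at the top, differed by 0.81 ± 0.17 (adjusted p 0.00389), again under 2-fold.

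Sprr3 was highest in the cells of the mouth and the esophagus. It measured 10.68 and 10.60 in oral mucosa and 9.82 and 9.93 in esophagus, against 7.22 and 7.34 in vagina, 5.41 and 5.38 in footpad and 5.01 and 5.44 in trachea. Trachea cells, which lay above footpad cells in Krt4 and Krt13 in every array, differed from them in Sprr3 by 0.17 (95% interval −0.14 to 0.48, adjusted p 0.464).

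Mal gave yet another order. It measured 8.77 and 8.78 in oral mucosa, 8.06 and 7.84 in trachea, 6.74 and 7.48 in vagina, 6.91 and 6.94 in esophagus and 5.01 and 5.02 in footpad. The trachea arrays lay above both esophagus arrays on the mean (esophagus minus trachea −1.03 ± 0.20, adjusted p 0.00486), the reverse of their order for Krt4, Krt13 and Sprr3. Without replicate 1 of trachea before transplantation, that difference was −0.92 (adjusted p 0.0635) and no longer passed. Vagina and esophagus overlapped and differed by 0.19 (95% interval −0.25 to 0.63, adjusted p 0.615).

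**Figure D1:**
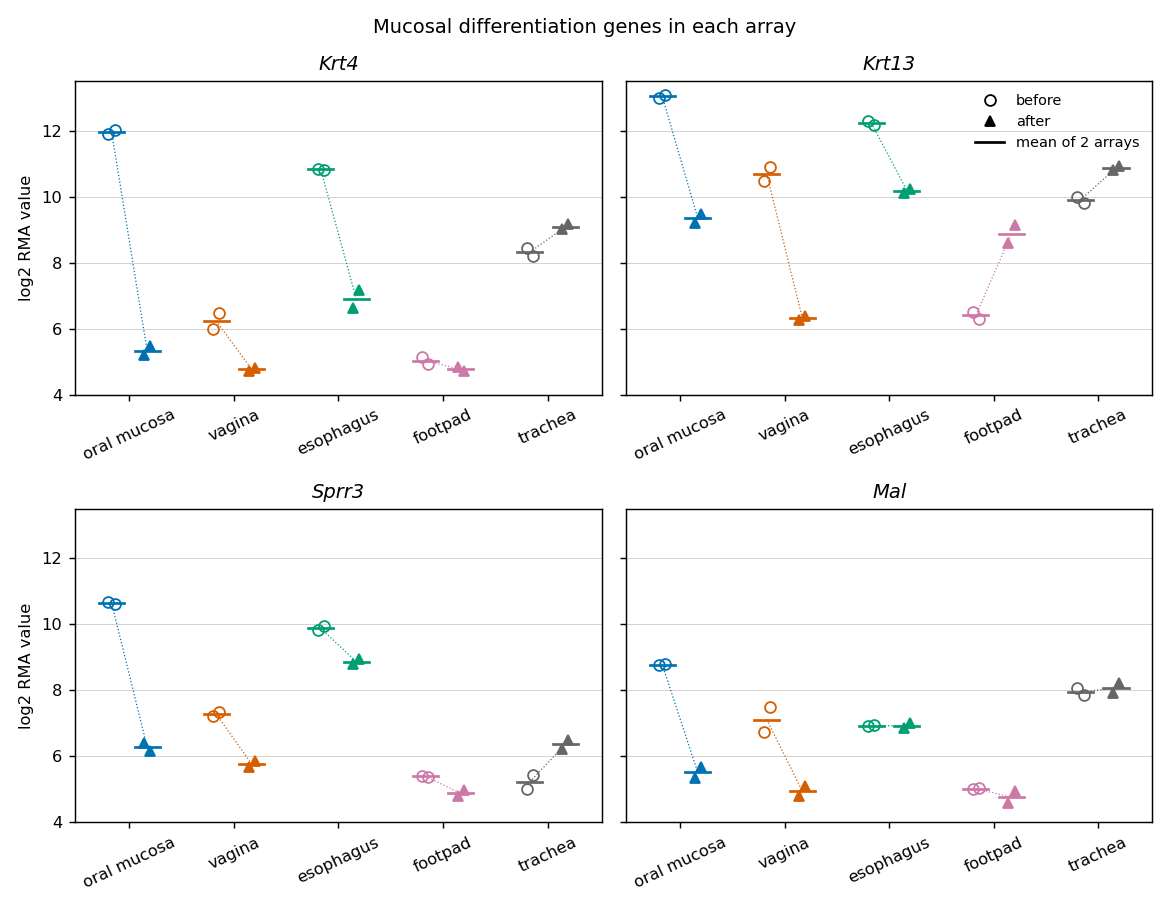
Log2 RMA value of each gene (panels) in each array by tissue of origin, open circles standing for cells before and triangles for cells after transplantation, with bars at the mean of 2 arrays and a dotted line joining the means. Krt4 in oral mucosa goes from 11.90 and 12.01 to 5.21 and 5.46, while Krt13 in footpad goes up from 6.50 and 6.30 to 8.61 and 9.15.

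The next question was what transplantation and recovery did to these levels. All 4 genes fell in oral mucosa and in vagina, 3 of 4 fell in esophagus, and in footpad and trachea none fell and 1 of 4 rose. Of all probe sets, 2.15% fell in oral mucosa, 1.68% in vagina, 0.558% in esophagus, 2.64% in footpad and 0.883% in trachea. In the other direction, 1.5% rose in oral mucosa, 0.534% in vagina, 0.517% in esophagus, 4.28% in footpad and 0.496% in trachea. The median change of the 4 genes was −4.03 in oral mucosa, −1.84 in vagina, −1.53 in esophagus, −0.26 in footpad and 0.87 in trachea, where the median over all probe sets lay between −0.03 and 0.06. Arrays before and after overlapped for Mal in esophagus and trachea. Lack of overlap in the other pairings is not a result by itself with 2 arrays per group, and its share over all probe sets was not counted. Krt4 and Mal in footpad did not overlap, but their limma adjusted p was 0.327 and 0.411. Of 12 fibroblast markers, 7 fell in vagina, 9 in footpad and 7 in trachea and 2 rose in oral mucosa, and their part in these changes was not tested.

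Krt4 in oral mucosa went from 11.90 and 12.01 to 5.21 and 5.46, a change of −6.63 ± 0.18 (limma adjusted p 6.02e-11), or 98.7-fold. In rank it was the largest fall of the 14506 symbols there. Of the probe sets, 98.9% lay below it before and 47.4% after, so it had dropped from near the top of the array to just under its middle. In esophagus Krt4 went from 10.85 and 10.81 to 6.63 and 7.18, a change of −3.93 ± 0.18 (adjusted p 2.26e-08), which was again the largest fall of all symbols in that tissue. In vagina, where it started low, it went from 5.98 and 6.48 to 4.72 and 4.80 (−1.47 ± 0.18, adjusted p 5.88e-05). The level reached there is close to 4.77, the value under which 40% of probe sets have their mean. Footpad cells had 5.13 and 4.91 before and 4.82 and 4.70 after, a difference of −0.26 (95% interval −0.65 to 0.13, adjusted p 0.327). In trachea Krt4 was 8.43 and 8.20 before and 9.004 and 9.16 after, a difference of 0.77 ± 0.18 that missed the fold of 2 (adjusted p 0.0101).

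Krt13 fell most in vagina, from 10.46 and 10.90 to 6.27 and 6.37, a change of −4.36 ± 0.17 (limma adjusted p 1.06e-09), or 20.5-fold. It was the 3rd largest fall of all symbols in that tissue, whereas Krt4 was 161st. In oral mucosa Krt13 went from 12.99 and 13.08 to 9.21 and 9.48 (−3.69 ± 0.17, adjusted p 6.7e-09) and in esophagus from 12.28 and 12.18 to 10.12 and 10.24 (−2.05 ± 0.17, adjusted p 5.78e-06). In recovered oral mucosa cells 91.1% of probe sets still lay below Krt13. The 95% intervals of the changes in oral mucosa were −7.01 to −6.24 for Krt4 and −4.06 to −3.32 for Krt13. In vagina they were −1.86 to −1.08 for Krt4 and −4.73 to −3.99 for Krt13, but Krt4 began there at 6.23 and ended among the dim probe sets, so the sizes of the falls cannot be compared.

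Footpad cells moved the other way for Krt13. The gene rose from 6.50 and 6.30 to 8.61 and 9.15, a change of 2.48 ± 0.17 (adjusted p 7.25e-08), or 5.58-fold, while Krt4 stayed among the dim probe sets. In trachea Krt13 was 9.98 and 9.81 before and 10.81 and 10.92 after, a difference of 0.96 ± 0.17 that was just under 2-fold (adjusted p 0.00167). It passed the test without replicate 1 before (1.05) or without replicate 1 after (1.02).

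Sprr3 fell 20.6-fold in oral mucosa, from 10.68 and 10.60 to 6.41 and 6.15 (−4.36 ± 0.15, limma adjusted p 3.02e-10), the 3rd largest fall there. The envelope gene fell less in vagina, from 7.22 and 7.34 to 5.67 and 5.86 (−1.51 ± 0.15, adjusted p 6.09e-06). In esophagus it went from 9.82 and 9.93 to 8.80 and 8.94, a change of −1.01 ± 0.15 (adjusted p 0.000414) that only just passed the fold, and it did not pass without replicate 2 before (−0.95) or replicate 1 after (−0.94). In footpad it was 5.41 and 5.38 before and 4.79 and 4.97 after (−0.52 ± 0.15, adjusted p 0.013, fold under 2). Trachea cells showed the only rise of Sprr3 among the 5 tissues, from 5.01 and 5.44 to 6.22 and 6.50 (1.14 ± 0.15, adjusted p 0.000152), and it did not pass the fold without replicate 1 before (0.92) or replicate 2 after (1.00).

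Mal fell in 2 of the 5 tissues. In oral mucosa it went from 8.77 and 8.78 to 5.36 and 5.67 (−3.26 ± 0.20, limma adjusted p 6.32e-08) and in vagina from 6.74 and 7.48 to 4.78 and 5.09 (−2.17 ± 0.20, adjusted p 5.18e-06). Esophagus cells had 6.91 and 6.94 before and 6.85 and 6.998 after, so that the arrays overlapped and the difference was 0.00 (95% interval −0.44 to 0.44, adjusted p 0.994). In the same cells Krt4 fell by 3.93 and Krt13 fell by 2.05, and the intervals of these changes do not reach that of Mal. The difference was 0.11 in trachea (95% interval −0.33 to 0.55, adjusted p 0.816) and −0.25 in footpad (95% interval −0.69 to 0.19, adjusted p 0.411).

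**Figure D2:**
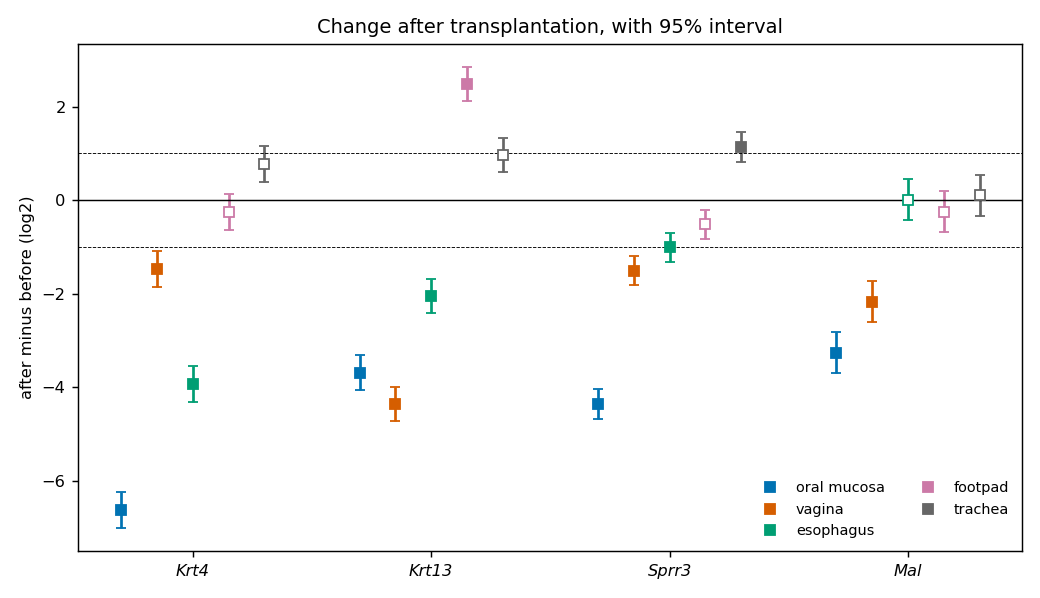
Change of each gene (after minus before, log2) in the 5 tissues, with bars for the 95% interval of limma's fit, a solid line at 0 and dashed lines at a 2-fold change; filled squares passed the test and open squares did not. Oral mucosa, vagina and esophagus lie below 0 for Krt4, Krt13 and Sprr3, footpad lies at 2.48 for Krt13, and Mal in esophagus lies on the line at 0.00.

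The responses of the tissues were also compared with each other, since a change in one tissue and none in another does not show that they differ. The F test over the 5 responses gave a limma adjusted p of 7.25e-10 for Krt4, 5.09e-10 for Krt13, 3.11e-09 for Sprr3 and 9.11e-07 for Mal. Of all probe sets, 37.0% also had an adjusted p under 0.05 in that test. Of the 10 pairs of tissues, the response differed past the test in 10 for Krt4, 9 for Krt13, 7 for Sprr3 and 7 for Mal. Of the Krt4 pairs, vagina minus footpad was −0.96 and did not pass without replicate 2 of vagina before transplantation, and footpad minus trachea did not pass when any 1 of 4 arrays was left out (−0.97 to −0.92). The Mal pair of oral mucosa and vagina did not pass when any 1 of 5 arrays was left out (−1.10 to −0.72). Footpad cells began at 5.02 in Krt4, 5.40 in Sprr3 and 5.01 in Mal, near or below the array medians, so a fall there had little room to be measured, and the differences from footpad carry that starting level. The share of all probe sets past the test was, for oral mucosa, 3.66% against vagina, 3.32% against esophagus, 12.9% against footpad and 6.81% against trachea. For vagina it was 1.76% against esophagus, 9.83% against footpad and 2.91% against trachea. It was, for esophagus, 9.4% against footpad and 3.06% against trachea and, for footpad, 5.56% against trachea. For no member did the mean response over the 5 tissues pass limma's test on the group means. None of the 29215 probe sets passed there (0.0%), and 3273 had an unadjusted p under 0.05. The mean response was −2.30 for Krt4 (95% interval −4.77 to 0.17, limma adjusted p 0.475), −1.33 for Krt13 (−3.78 to 1.12, adjusted p 0.682), −1.25 for Sprr3 (−2.91 to 0.41, adjusted p 0.566) and −1.12 for Mal (−2.38 to 0.15, adjusted p 0.498).

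After transplantation the order of the tissues was a different one. Trachea cells had the highest level of Krt4, Krt13 and Mal and esophagus cells that of Sprr3, and oral mucosa, first for each gene before, ranked 3rd for all 4. Krt4 in trachea (9.004 and 9.16) lay above oral mucosa, with oral mucosa minus trachea at −3.75 ± 0.18 (limma adjusted p 6.94e-09) where before it had been 3.64. Sprr3 in esophagus (8.80 and 8.94) lay 2.51 ± 0.15 above trachea, the second (adjusted p 5.74e-08). At the low end, vagina and footpad could not be told apart for Krt4 (difference 0.00, 95% interval −0.39 to 0.39, adjusted p 0.999) or for Mal (0.18, 95% interval −0.26 to 0.62, adjusted p 0.634).

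For Krt13 the bottom place had passed from footpad to vagina, where the level minus that of footpad was −2.56 ± 0.17 (adjusted p 7.6e-08). Neighbors in the Krt13 order that did not pass were trachea and esophagus (esophagus minus trachea −0.68, adjusted p 0.0131, under 2-fold), esophagus and oral mucosa (oral mucosa minus esophagus −0.84, adjusted p 0.00239, under 2-fold) and oral mucosa and footpad (0.46 apart, adjusted p 0.0621). For Sprr3, oral mucosa minus trachea was −0.08 (adjusted p 0.762). The tissues still differed, with 7, 7, 6 and 7 of 10 pairs past the test for Krt4, Krt13, Sprr3 and Mal. The Mal pair of esophagus and trachea was at −0.98 and did not pass the fold without replicate 2 of trachea. The share of all probe sets past it was, for oral mucosa, 2.85% against vagina, 3.01% against esophagus, 4.21% against footpad and 3.11% against trachea. For vagina it was 0.739% against esophagus, 5.21% against footpad and 2.9% against trachea. It was, for esophagus, 5.88% against footpad and 2.61% against trachea and, for footpad, 4.17% against trachea. The F test over the 5 tissues had a limma adjusted p of 1.13e-09 for Krt4, 1.16e-09 for Krt13, 1.14e-09 for Sprr3 and 5.09e-08 for Mal, against 40.2% of all probe sets with one under 0.05. The span from the highest to the lowest group mean narrowed from 6.94 to 4.32 for Krt4, from 6.64 to 4.54 for Krt13, from 5.42 to 3.99 for Sprr3 and from 3.76 to 3.30 for Mal, which is a description without a test.

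Seen across the 10 group means, Krt4 and Krt13 moved most alike, with a Pearson's r of 0.861 and a Spearman's rho of 0.915. Sprr3 and Mal moved least alike (0.581 and 0.576). The other 4 pairs had r from 0.761 to 0.854. These are descriptions, as the groups share tissues and arrays.

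The genes whose pattern was most like each member were sought among 781 other symbols with group means that span more than 2 log2 units. For Krt4 they were Pc, the pyruvate carboxylase of gluconeogenesis (r 0.946), Prss27, a serine protease (0.943), Lynx1, a modulator of nicotinic receptors (0.938), Serpinb11 (0.930) and Dsc2, a desmosomal cadherin (0.915). For Krt13 the first was Dhrs3, a retinal reductase (0.958), and then came Tmprss11g, Tmprss11f and Tmprss11b (0.937, 0.919 and 0.918), transmembrane proteases of a family found in airway and squamous linings, and the interferon-induced Oasl (0.9003). For Sprr3 they were Tmem45b (0.925), the calcium-binding S100a8 (0.917), the ETS factor Elf5 (0.881), the protease inhibitor Slpi (0.861) and the transglutaminase Tgm3 (0.860). For Mal they were the glycosyltransferase Mgat4a (0.961), the cytokine Il1a (0.951), Dsc2 (0.946), Ggt1, an enzyme of glutathione breakdown (0.939), and the receptor gene Npy4r (0.937). Dsc2 was the single symbol named for 2 of the members. With 10 points each, an r above 0.9 was reached by 8 symbols for Krt4, 5 for Krt13, 2 for Sprr3 and 15 for Mal.

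Other genes of mucosal differentiation moved with the members in part. Of 17 measured genes of that list, 8 fell and none rose in oral mucosa, 4 fell and none rose in vagina and in esophagus, 8 rose and 1 fell in footpad, and 3 rose and none fell in trachea. Of all probe sets, 2.15% fell in oral mucosa, 1.68% in vagina, 0.558% in esophagus, 2.64% in footpad and 0.883% in trachea. The shares that rose were 1.5%, 0.534%, 0.517%, 4.28% and 0.496% in the same order. The list's median change was −0.82, −0.18, −0.20, 0.89 and 0.27 in that order of tissues. Serpinb11, a member of the clade B serpins, fell by 4.10 in oral mucosa, 1.57 in vagina and 1.16 in esophagus. Tmprss11d, the airway trypsin-like protease, fell by 2.66 in oral mucosa, and its difference was between −0.02 and 0.32 elsewhere. In those other tissues it began at 3.21 to 3.41, under the array medians of 5.31 to 5.55, where a fall had little room to be measured. Scel, sciellin of the cornified envelope, fell by 2.35 in oral mucosa and 1.41 in esophagus and rose by 3.29 in footpad. Muc15, a membrane mucin, rose by 3.26 in footpad. The protease genes nearest to Krt13 in pattern were picked over group means that include footpad, so a shared direction there is no separate result. In footpad Tmprss11b was at 2.40 and Tmprss11f at 1.22, while Tmprss11g was at 0.89 and did not pass.

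**Figure D3:**
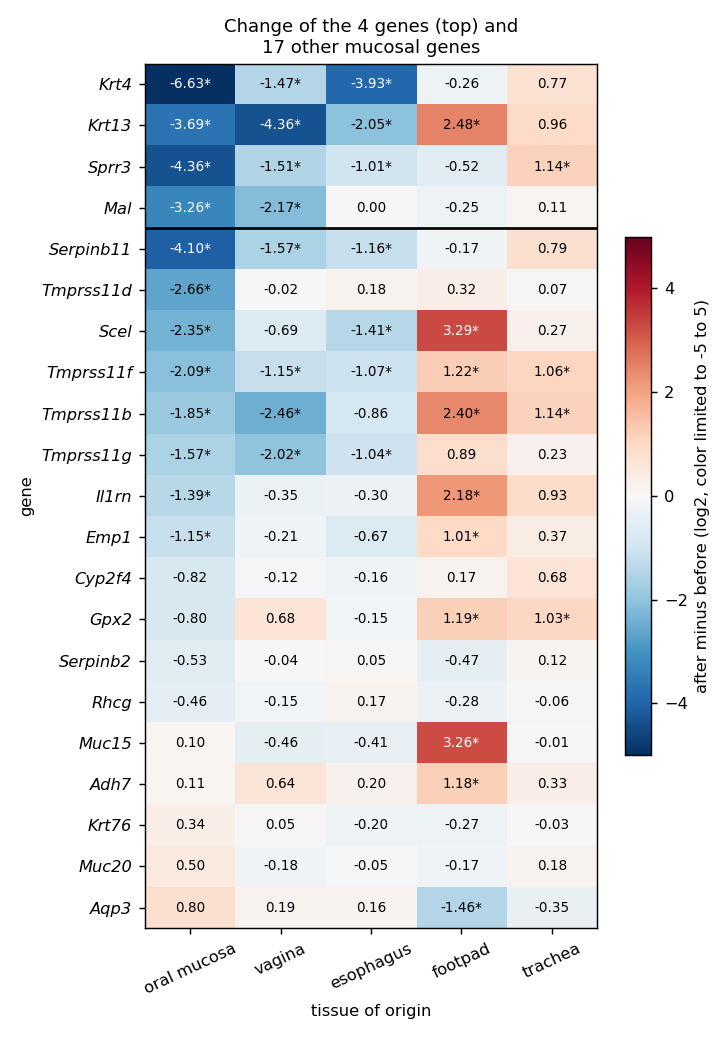
Change (after minus before, log2) of the 4 genes above the line and of 17 other mucosal genes below it, sorted by oral mucosa, in the 5 tissues; blue is lower and red higher after transplantation, and an asterisk marks a change past the test. The first column is mostly blue, with 4 of 4 and 8 of 17 genes lower past the test, against 2.15% of all probe sets. The footpad column has Scel and Muc15 at 3.29 and 3.26.

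Keratins other than the pair were next. Of all probe sets, 2.15% fell in oral mucosa, 1.68% in vagina, 0.558% in esophagus and 0.883% in trachea. In footpad 4.28% rose and 2.64% fell, and in trachea 0.496% rose. Of 10 measured type II keratins 2 fell in oral mucosa and 2 in vagina, 1 rose in footpad, and none passed in esophagus or trachea. Counts of 1 or 2 genes in such short lists are not read as results about the list. Krt8, of simple epithelium, fell by 1.46 in oral mucosa and 3.44 in vagina, Krt7, its relative in ducts and glands, by 2.77 in vagina, and Krt80 by 1.39 in oral mucosa. Krt1, the type II keratin of the keratinized epidermis, rose by 2.17 in footpad, the tissue where Krt4 stayed low. Of 17 type I keratins 3 fell in oral mucosa, 4 in vagina, 1 in esophagus and 3 in trachea, where 1 rose. In footpad 3 type I keratins rose and 2 fell. Krt23 rose there by 2.45, and Krt18, the partner of Krt8, fell by 2.67 in oral mucosa, 1.44 in vagina and 1.86 in trachea.

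The type I keratin genes lie side by side in the genome, and the neighbors of Krt13 were looked up in the order of the GRCr8 annotation. On the whole array, 2.15% of probe sets fell in oral mucosa and 1.68% in vagina, with 0.558% in esophagus and 0.883% in trachea. In footpad 4.28% rose. Krt15 and Krt19, which follow Krt13, changed past the test in 5 and 4 of the tissues. Krt36, Krt35 and Krt32 on the other side and Krt9 beyond Krt19 passed in none, but they lay between 3.42 and 5.48 in all groups. That is near or below the array medians of 5.31 to 5.55. A fall there had little room to be measured, so the sides of Krt13 cannot be compared. Krt15, which basal cells make, fell by 1.12 in oral mucosa, 3.57 in vagina, 3.34 in esophagus and 1.08 in trachea and rose by 3.40 in footpad. Krt19, of simple epithelium, fell by 1.41, 3.36 and 1.91 in oral mucosa, vagina and trachea and rose by 1.90 in footpad. Krt13 shared these directions in oral mucosa, vagina and footpad, but in trachea it was 0.96 higher when its neighbors were lower. Of the 3 genes on either side of Krt4, 4 were measured. Krt1 rose by 2.17 in footpad and Krt8 fell by 1.46 in oral mucosa and 3.44 in vagina. Krt76 and Krt77, which lie nearer to Krt4 than Krt1 does, were between −0.27 and 0.58 in all 5 tissues and did not pass. Their levels were 3.96 to 4.53, so here too a fall had little room to be measured. Keratins resemble each other in sequence, and how specific each probe set is cannot be seen in these values.

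**Figure D4:**
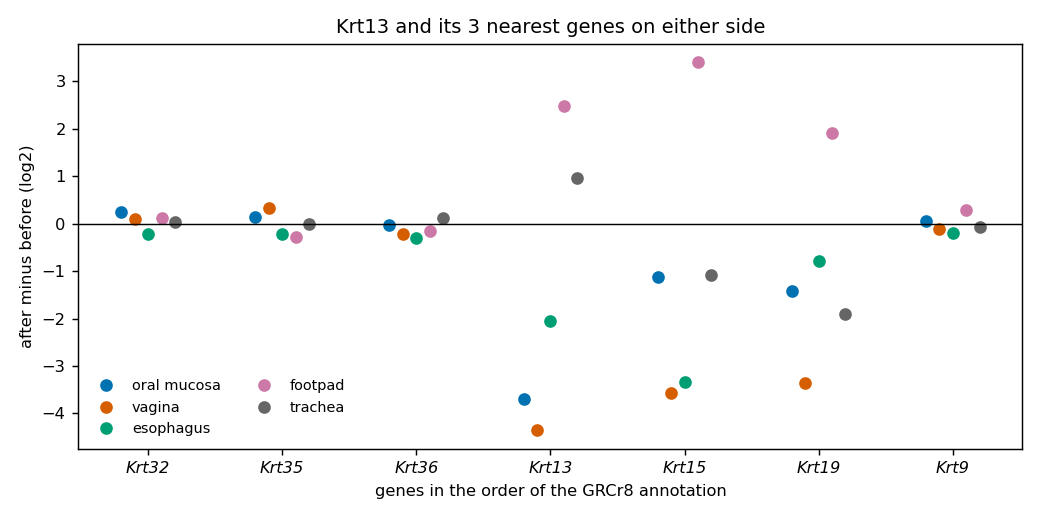
Change (after minus before, log2) of Krt13 and the 3 genes before and after it in the order of the GRCr8 annotation, with 1 color per tissue. Krt15 and Krt19 lie away from 0 like Krt13, up to 3.40 in footpad and down to −3.57 in vagina. Krt32, Krt35, Krt36 and Krt9 lie close to 0, with levels near or below the array medians, where a fall had little room to be measured.

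Genes of the cornified envelope, the structure that Sprr3 is built into, fell with it in oral mucosa. Of 12 measured genes 7 fell there, none fell in vagina, 2 fell in esophagus, 1 fell in footpad and none in trachea. Among genes of the list that rose there were 1 each in vagina, esophagus and trachea, 3 in footpad and none in oral mucosa. Of all probe sets, 2.15% fell in oral mucosa, 1.68% in vagina, 0.558% in esophagus, 2.64% in footpad and 0.883% in trachea. The shares that rose were 0.534% in vagina, 0.517% in esophagus, 4.28% in footpad and 0.496% in trachea. Counts of 1 gene are not read as results about the list. Tgm3, a transglutaminase, fell by 2.75 in oral mucosa and 1.30 in footpad. Cnfn, cornifelin, fell by 2.21 in oral mucosa and 1.12 in esophagus and rose by 2.60 in footpad and 1.35 in trachea. S100a8 fell by 1.74 in oral mucosa. The median change of the list was −1.30 in oral mucosa and −0.13 in vagina. In vagina cells Sprr3 fell by 1.51. None of the 12 other measured envelope genes passed downward. With 1.68% of all probe sets falling there, that is not read as a contrast with Sprr3. Some were lower by less than 2-fold there, namely Ppl (−0.77, limma adjusted p 3.2e-05), Tgm1 (−0.68, adjusted p 1.7e-05), Scel (−0.69, adjusted p 0.0088) and Evpl (−0.44, adjusted p 0.0053). Cst6, the 1 gene of the list that rose there, was at 1.02. The list has 32 genes, so most were not measured. The genes on either side of Sprr3 in the annotation, Sprr1b and Sprr1a, were not measured either.

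Mal belongs to a family of membrane proteins with a MARVEL domain, and of 17 measured genes of that domain and of lipid rafts, 3 fell and 1 rose in oral mucosa, 1 fell in esophagus, 4 rose and 2 fell in footpad, and none passed in vagina or trachea. Of all probe sets, 2.15% fell and 1.5% rose in oral mucosa, 0.558% fell in esophagus, and 4.28% rose and 2.64% fell in footpad. Counts of 1 or 2 genes are not read as results about the list. Mal2, which acts in transcytosis, fell by 2.28 in oral mucosa and rose by 2.98 in footpad, where Mal itself did not pass. Ocln and Marveld2, both of tight junctions, fell by 1.47 and 1.10 in oral mucosa and rose by 1.996 and 1.24 in footpad. Flot1, a raft protein, fell by 1.05 in esophagus and rose by 2.14 in footpad. Mall, the gene next to Mal, was at −0.83 in oral mucosa and 0.81 in footpad, both under 2-fold.

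Of 21 measured transcription factors and Notch genes of squamous epithelium, 6 fell in oral mucosa, 2 fell and 1 rose in vagina, 3 fell in esophagus, 9 rose and 1 fell in footpad, and 1 rose in trachea. Of all probe sets, 2.15% fell in oral mucosa, 1.68% in vagina, 0.558% in esophagus and 2.64% in footpad. The shares that rose were 0.534% in vagina, 4.28% in footpad and 0.496% in trachea. Elf3, an epithelial ETS factor, fell by 3.20 in oral mucosa, 2.98 in vagina and 1.84 in esophagus. Elf3 rose by 3.12 in footpad, and its difference in trachea was 0.36. Its changes thus had the sign of those of Krt13 in all 5 tissues. Ehf, of the same family, fell by 1.38 in oral mucosa and 1.61 in esophagus and rose by 2.83 in footpad. Pitx1, a homeobox gene of the hindlimb and mouth, rose by 2.62 in footpad. Hopx fell by 1.32 in oral mucosa and rose by 1.49 in vagina, 2.36 in footpad and 1.60 in trachea.

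Markers of other cells also moved. The fibroblast markers that rose in oral mucosa were Vim, by 5.10, and Twist1, by 1.37. The rest of the list lay between −0.57 (Thy1) and 0.52 (Pdgfrb) there and did not pass, with Col1a1 at 0.26 and Dcn at 0.12. None of the list passed in esophagus. The mean of the 12 in the 2 arrays went from 6.69 and 6.55 to 5.26 and 5.20 in vagina, from 6.85 and 6.80 to 5.28 and 5.23 in footpad, and from 6.73 and 6.58 to 5.31 and 5.22 in trachea. It was 4.99 and 5.14 before and 5.73 and 5.74 after in oral mucosa and 5.03 and 5.24 before and 5.21 and 5.20 after in esophagus. Vim had by far the largest change of the 12 in oral mucosa, so the higher mean there does not stand for the whole list. Of 6 simple epithelium markers 3 fell in oral mucosa, 2 in trachea and 4 in vagina, and 2 rose in footpad. Of all probe sets, 2.15% fell in oral mucosa, 0.883% in trachea and 1.68% in vagina, and 4.28% rose in footpad. Cd68 of macrophages was the single leukocyte marker of 6 to fall, by 1.96 in oral mucosa and 1.07 in vagina, and no endothelial, muscle, melanocyte or airway marker passed in any of the 5 tissues. The part of these cells in the changes of the 4 genes was not tested. Of the 5 basal layer genes Krt14, Tp63, Itga6, Itgb4 and Col17a1 none passed the test in any of the 5 tissues, whereas Krt15, which basal cells also make and which is not in that list, passed in all 5.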

How the data were processed

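Sorted EGFP-positive cells gave total RNA, of which, per the labels, 100 ng per array was labeled for Affymetrix Rat Gene ST arrays. The deposited table holds log2 values that the authors made with RMA in Affymetrix Expression Console, which corrects background, quantile-normalizes arrays and summarizes probes. The sources used here give neither versions nor the set of arrays normalized together. All 20 columns were matched to samples, and 0 columns were left over. Groups came from the tissue and from whether the label names a transplantation. Roman numerals in the titles changed from one stage to the other except for vagina. If they are passages, stage and passage cannot be told apart in the other tissues.

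The 29215 probe sets (15310 with 1 symbol) were fitted with limma 3.58.1 (lmFit, eBayes) in R 4.3.3, with all 10 groups together, 10 residual and 3.64 prior degrees of freedom, and Benjamini-Hochberg adjustment over all probe sets within each comparison. The test is an adjusted p under 0.05 and a fold over 2, as the study states. The mean response was fitted on group means with tissue as a block. The fit was tested on simulated data. Precision is limited by 2 arrays per group.

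The 4 genes and the gene lists were chosen with earlier results of these data known. From each list up to 4 genes with the largest change past the test are named, and per member the 5 symbols with the highest Pearson's r over the group means. Genes that neighbor a member, the proteases near Krt13 and the fibroblast genes were named after their values were seen. Promoters are from RefSeq, where 2 of 4 members matched. Alternatives tried were median centering, a filter on dim probe sets, fits of fewer arrays, a replicate block, eBayes with trend and robust (statmod 1.5.0) and leaving out each array.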

Additional observations from a re-analysis of the deposited data

Results flagged for a closer look

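The change of the 4 genes after transplantation differed between tissues by a test of the difference itself, as it did for many others. The F test over the 5 responses had a limma adjusted p of 7.25e-10 for Krt4, 5.09e-10 for Krt13, 3.11e-09 for Sprr3 and 9.11e-07 for Mal, and 37.0% of all probe sets had one under 0.05. The values below are the response (after minus before) in the first tissue minus that in the second, on the log2 scale, for pairs past limma's test.

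For Krt4 the response in oral mucosa differed by −5.16 against vagina, −2.70 against esophagus, −6.37 against footpad and −7.40 against trachea. For Krt4 the response in vagina differed by 2.46 against esophagus, −1.21 against footpad and −2.24 against trachea. For Krt4 the response in esophagus differed by −3.67 against footpad and −4.70 against trachea. For Krt4 the response in footpad differed by −1.03 against trachea. Footpad cells began at 5.02, under the array medians of 5.31 to 5.55, and vagina cells at 6.23, so the differences from these tissues carry their low starting level. Vagina against footpad was −0.96 without replicate 2 of vagina before transplantation, and footpad against trachea was between −0.97 and −0.92 when any 1 of 4 arrays was left out, and none of these passed. The value of footpad against trachea was −0.98 with each array centered on its median and then did not pass the fold.

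For Krt13 the response in oral mucosa differed by −1.64 against esophagus, −6.17 against footpad and −4.66 against trachea. For Krt13 the response in vagina differed by −2.31 against esophagus, −6.84 against footpad and −5.32 against trachea. For Krt13 the response in esophagus differed by −4.53 against footpad and −3.01 against trachea. For Krt13 the response in footpad differed by 1.52 against trachea. The signs for footpad follow from a rise in footpad against a fall in oral mucosa, vagina and esophagus.

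For Sprr3 the response in oral mucosa differed by −2.85 against vagina, −3.35 against esophagus, −3.84 against footpad and −5.50 against trachea. For Sprr3 the response in vagina differed by −2.65 against trachea. For Sprr3 the response in esophagus differed by −2.14 against trachea. For Sprr3 the response in footpad differed by −1.65 against trachea. Trachea, in which Sprr3 was higher after transplantation, stands in 4 of these 7 pairs, and so does oral mucosa, in which Sprr3 fell most. Sprr3 began at 5.40 in footpad and at 5.22 in trachea, near or below the array medians, where a fall had little room to be measured.

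For Mal the response in oral mucosa differed by −1.09 against vagina, −3.27 against esophagus, −3.01 against footpad and −3.37 against trachea. For Mal the response in vagina differed by −2.18 against esophagus, −1.92 against footpad and −2.28 against trachea. The pair of oral mucosa and vagina rests on single arrays, with −0.72 (adjusted p 0.0967) without replicate 1 of vagina before transplantation. Mal began at 5.01 in footpad, so the differences from footpad carry that low start.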

How the results depend on the processing

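Under median centering, without the 40% of probe sets of lowest mean, in fits of the tissue's 4 arrays alone, with the replicate block and with trend and robust eBayes, all 100 values of the after versus before comparison of the 4 genes kept their direction and their side of the test, and so did the F tests. Among pairs of tissues, median centering moved the difference of response of Sprr3 between vagina and footpad to −1.09, past the test, and that of Krt4 between footpad and trachea to −0.98, not past it.

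Leaving out 1 array moved the change of Sprr3 in esophagus between −1.08 and −0.94, that of Sprr3 in trachea between 0.92 and 1.36 and that of Krt13 in trachea between 0.88 and 1.05, and these 3 crossed the 2-fold limit. Mal changed sign around 0, between −0.0677 and 0.0754 in esophagus and between −0.0419 and 0.25 in trachea. Calls between tissues that depended on 1 array were, for the response, Krt4 in vagina against footpad (−1.46 to −0.96) and in footpad against trachea and Mal in oral mucosa against vagina, before transplantation Krt4 in vagina against footpad (0.96 to 1.46) and Mal in esophagus against trachea (−1.14 to −0.92), and after it Mal in esophagus against trachea (−1.28 to −0.98). Differences that passed only without 1 array were that of the Sprr3 response between vagina and footpad (−1.09 to −0.90) and, before transplantation, Mal in vagina against trachea (−1.21 at the lowest). Differences near 0 that changed sign were those of response for Mal between esophagus and trachea (−0.251 to 0.0458), before transplantation those of Mal between vagina and esophagus (−0.18 to 0.56) and of Sprr3 between footpad and trachea (−0.0490 to 0.39), and after it those of Sprr3 between oral mucosa and trachea (−0.22 to 0.0608), Krt4 between vagina and footpad (−0.0581 to 0.0592) and Mal between vagina and footpad (−0.00322 to 0.35).

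Over all 45 pairs of groups the deviations of same-numbered arrays had an r between −0.409 and 0.399, and between before and after in a tissue −0.150 to 0.0277, so the numbers were not taken to pair the samples. With the replicate block on single arrays the mean response of Krt4 (−2.30, adjusted p 0.033) and Mal (−1.12, adjusted p 0.0446) passed the test, in a fit that counts the 20 arrays as units in place of the 10 group means, and the block changed no other call. The share of all probe sets past the test in that fit is not given here, so these passes are not read as results about the members. Mean responses of the members did not pass in the other fits. The alternative of averaging probe sets of a symbol did not apply, since each member has 1. Values near the array median have no detection call, so falls that end there may be understated and tissues that begin there could hardly fall.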
